A study of Mus musculus with 14 samples.

Results

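The genes described here serve MHC class I peptide processing and loading, and were chosen by function with earlier results of these data known. They are Nlrc5, B2m, Tap1, Tap2, Tapbp, Psmb8, Psmb9, Psmb10, Psme1 and Psme2, listed in capitals in the count table as NLRC5, B2M, TAP1, TAP2, TAPBP, PSMB8, PSMB9, PSMB10, PSME1 and PSME2. All 10 were found among the 24982 genes of the table, and all 10 were among the 13136 genes with enough reads to be tested. RNA was sequenced from mature macrophages sorted from the lamina propria of the colon and cecum of mice aged 5 weeks, gated for CD45, CD64, CD11b and MHC class II and against Ly6G, CD103 and Ly6C. All mice carried Cdcs1, a colitis susceptibility locus, on a C57BL/6 background. The WT group had Cdcs1 alone (4 libraries compared), the IL10RAKO group was Cdcs1, Il10ra -/- (4 libraries), and the DKO group was Cdcs1, Il10ra -/-, Ccr2 -/- (4 libraries). Another WT library (number 11) and the 1 library from a Cdcs1, Ccr2 -/- mouse (CCR2KO) were outside the comparisons and are given as values only. Both deletions were germline, so that every cell of the mouse lacked the gene, and the study used cohoused littermate controls of both sexes. The study reported robust colitis in young Il10ra -/- mice and milder colitis where Ccr2 was also lacking. It found no histologic signs of colitis in wild-type mice. Loss of Il10ra and gut inflammation therefore cannot be told apart in the comparisons with WT. The labels give no sex, litter or sort day for a library, and p-values measure the spread between these libraries.

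Nearly every cell shows peptides from its own proteins at its surface on MHC class I molecules. Proteins are cut by the proteasome, the peptides are pumped into the endoplasmic reticulum, and a loading complex fits them onto a heavy chain paired with beta-2 microglobulin. Interferon gamma, acting in part through IRF1, induces much of this route together with the transactivator NLRC5. In that state the standard catalytic subunits of the proteasome are exchanged for immunoproteasome subunits, and the PA28 cap, made of the products of Psme1 and Psme2, opens the core. Interleukin-10, whose receptor chain Il10ra was deleted here, is a brake on macrophage activation in the gut.

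The fitted libraries held 13085287 to 21216468 counted reads. Levels are given as CPM, the reads of a gene scaled to its library's total, normalized with the trimmed mean of M values (TMM). Il10ra read 217 to 380 CPM in WT libraries, and 4.89 to 11.2 and 3.41 to 7.59 in those of the IL10RAKO and DKO groups. Ccr2 read 514 to 702 CPM in WT libraries, 361 to 627 in those of IL10RAKO mice and 3.92 to 6.68 in those of DKO mice, so the deleted genes followed the labels. All 10 macrophage markers were detected in every group, with summed levels of 9421 to 12490, 7729 to 12090 and 6706 to 11680 CPM (WT, IL10RAKO and DKO in that order). Of these markers FCGR1 was higher in IL10RAKO (log2 0.83), and in DKO MERTK was higher (0.98) and ADGRE1 and CX3CR1 were lower (-1.05 and -1.21). The 4 MHC class II genes of the sort gate summed to 48150 to 84210 CPM across the 12 libraries, and 1 of them, H2-AB1, passed, higher in IL10RAKO (log2 0.61). Fibroblast markers moved with genotype: all 6 were lower in both groups without Il10ra, and they summed to 294 to 577 CPM in WT mice, 15.0 to 53.7 CPM in IL10RAKO mice and 16.1 to 67.0 CPM in DKO mice, with none at 0 in any group. The CCR2KO library, at 681 CPM, lay above all of them.

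All 10 class I processing genes rose in macrophages without Il10ra. In IL10RAKO against WT, 10 of 10 passed an adjusted p under 0.05 in the higher direction (edgeR quasi-likelihood test, Benjamini-Hochberg adjustment over all genes tested), where 8.7% of all tested genes did, with log2 fold changes of 1.19 to 2.19 and a median of 1.55. In DKO against WT, 10 of 10 again passed as higher, where 9.23% of tested genes did, with log2 fold changes of 1.13 to 2.22 and a median of 1.61. Across all tested genes the median log2 fold change was -0.07 and -0.06. Every IL10RAKO library lay above every WT library for all 10 genes, a separation found for 9.45% of tested genes, and the same held for DKO libraries, where 11.2% of tested genes were so separated. The IL10RAKO and DKO comparisons share their WT libraries, and the 10 genes were chosen with earlier results of these data known. In this bulk RNA, fewer cells of a type and less RNA per cell cannot be told apart.

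**Figure D1:**
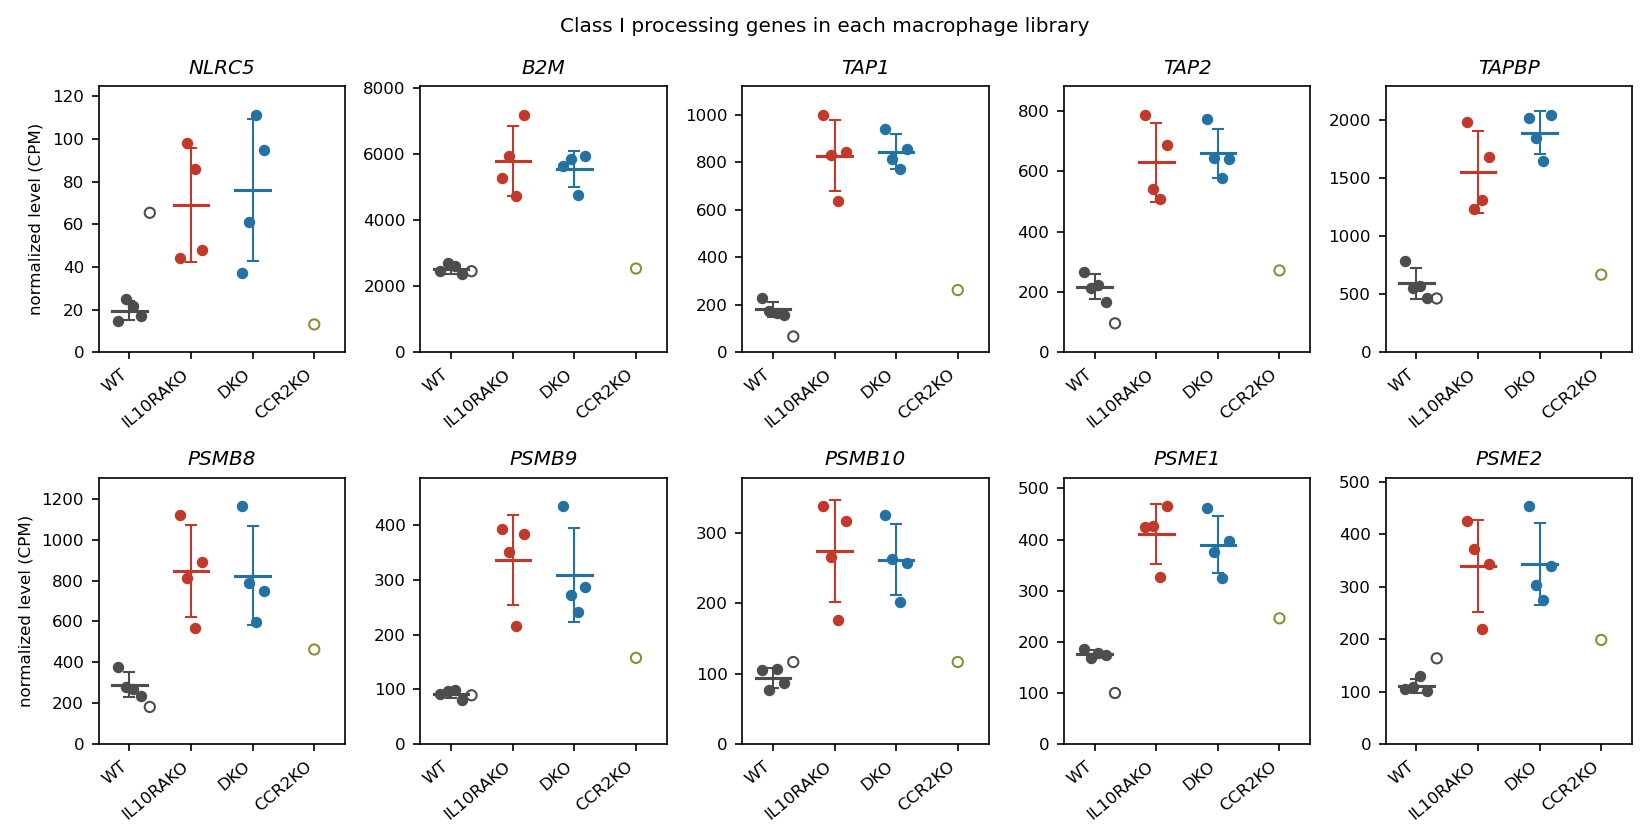
Normalized level (CPM, linear axis from 0) of each gene in each library. Filled points are the 12 libraries compared, horizontal lines and bars give the mean and SD of 4, and open points are WT library 11 and the CCR2KO library. In all 10 panels the lowest IL10RAKO or DKO library lies above the highest filled WT library.

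Adding the fibroblast marker level to the fit as a covariate kept only TAP1 past the threshold, with a log2 fold change of 2.24 in IL10RAKO (adjusted p = 0.0473, edgeR) and 2.27 in DKO (adjusted p = 0.0300). The other nine stayed above 0 and no longer passed, with adjusted p up to 0.769 and 0.574, and the members' medians were 1.46 and 1.51. That marker level did not overlap between WT and the other 2 genotypes, so genotype and marker level are largely confounded in this fit. In the CCR2KO library, with the highest fibroblast level of all, TAP1 read 262 CPM and B2M 2535 CPM. That lone library lay above all fitted WT libraries for 7 of the 10 genes, where it did so for 21.8% of tested genes, and below every IL10RAKO and DKO library for all 10, where 24.6% of tested genes did. With library totals in place of TMM, the median over all genes shifted to -0.38 in IL10RAKO and -0.32 in DKO. All 10 genes still passed there, while the genes called in each direction changed from 1143 higher and 933 lower to 651 and 2084 in IL10RAKO, and from 1213 and 1211 to 748 and 2140 in DKO.

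Markers of some other cells also moved. Of all tested genes, 8.7% were higher and 7.1% lower in IL10RAKO, and 9.23% and 9.22% in DKO. The counts here are to be read beside these shares. The 6 dendritic cell markers summed to 216 to 1028, 1429 to 1862 and 1018 to 1777 CPM (WT, IL10RAKO and DKO in that order), with 3 of 6 higher in IL10RAKO and 2 in DKO. The 6 monocyte markers summed to 164 to 193, 371 to 1057 and 437 to 705 CPM, with 2 higher and 1 lower of 6 in each. Cells were sorted against Ly6C, yet of the Ly6C genes LY6C2 was higher (log2 4.06 in IL10RAKO and 3.65 in DKO). LY6C1 was lower (log2 -2.18 and -1.95). Neutrophil markers summed to 73.5 to 117, 134 to 296 and 152 to 259 CPM, and all 4 of those tested were higher. In WT, 2 of the 6 neutrophil markers were at 0 in all 4 libraries. For T and NK cells the sum was 162 to 224, 110 to 202 and 120 to 247 CPM, with 1 higher and 1 lower of 11 in IL10RAKO and 2 higher and 1 lower in DKO. B and plasma cell markers summed to 521 to 1825, 395 to 1079 and 482 to 1879 CPM, and none of 6 passed. Epithelial markers summed to 42.9 to 946, 36.6 to 160 and 129 to 182 CPM, with 0 of 5 passing, and endothelial markers to 76.2 to 192, 66.6 to 109 and 52.1 to 86.5 CPM, with 0 and 1 of 4 lower. The part of these cells in the rise of the class I genes was not tested.

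NLRC5 is the transactivator of MHC class I genes, a NOD-like receptor family protein that acts in the nucleus at class I promoters. The gene (chr8:94434356-94527272, plus strand, GRCm38) had the lowest level of the 10 per length. It read 14.8, 24.8, 21.5 and 17.2 CPM in WT libraries, 44.3, 97.9, 85.7 and 48.2 CPM in IL10RAKO libraries and 37.4, 61.3, 111 and 94.96 CPM in DKO libraries. No value of either group without Il10ra reached down to the WT range, although both groups spread more than 2-fold within themselves. The log2 fold change was 1.82 ± 0.34 (SE) in IL10RAKO (adjusted p = 0.00219, edgeR) and 1.96 ± 0.34 in DKO (adjusted p = 0.00114). WT library 11, not among the fitted libraries, read 65.4 CPM, inside the range of both knockout groups. With that library included, the IL10RAKO log2 fold change was 1.27 and did not pass (adjusted p = 0.0762), while the DKO comparison still passed (adjusted p = 0.0462).

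B2M is beta-2 microglobulin, the light chain of every class I molecule. The gene (chr2:122147686-122153083, plus strand) had the highest level of the 10 per length and was even within WT, at 2454, 2693, 2622 and 2362 CPM. The 4 IL10RAKO libraries read 5269, 5937, 4724 and 7184 CPM and the 4 DKO libraries 5619, 5856, 4754 and 5925 CPM. No library of either knockout group came near the WT values, and the fold changes were 2.28 in IL10RAKO (log2 1.19 ± 0.16 SE, adjusted p = 0.000133, edgeR) and 2.19 in DKO (log2 1.13 ± 0.16, adjusted p = 0.000175). These were the smallest folds of the 10 genes.

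The promoter of B2m is shown because it holds matches to a motif of interferon-induced factors, to the NF-kappaB motif and to motifs of the class I enhanceosome. The window runs from 250 bases before to 50 bases after the start in RefSeq (GRCm38.p6). Capitals mark, on either strand, GAAANNGAA (the core of an interferon-stimulated response element, ISRE), TTCNNNGAA (a gamma-activated site, the GAS motif), the letters CCAAT (an NF-Y box), the letters TGACG (the X2 core) and the kappaB motif.

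B2m, chr2:122147437-122147736, plus strand: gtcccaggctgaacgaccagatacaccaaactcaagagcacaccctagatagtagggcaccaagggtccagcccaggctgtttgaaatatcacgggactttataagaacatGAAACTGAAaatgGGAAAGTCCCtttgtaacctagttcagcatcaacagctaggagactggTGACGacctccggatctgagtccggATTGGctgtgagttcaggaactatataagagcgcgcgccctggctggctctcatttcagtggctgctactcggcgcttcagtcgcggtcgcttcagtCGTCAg

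In B2m the ISRE core match lay at bases -139 to -131 from the start, the kappaB match at -126 to -117, an X2 core match at -78 to -74 and a reversed CCAAT at -53 to -49. A second X2 core match lay at 44 to 48, and the GAS letters had no match.

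TAP1 and TAP2 encode the partner chains of the transporter that carries peptides into the endoplasmic reticulum. TAP1 (chr17:34187553-34197225, plus strand) showed the largest fold of the 10. It read 228, 176, 166 and 157 CPM in WT libraries, 1000.4, 829, 636 and 844 CPM in IL10RAKO libraries and 941, 814, 770 and 855 CPM in DKO libraries. The lowest knockout library, at 636 CPM, stood far above the highest WT library. The fold was 4.56 in IL10RAKO (log2 2.19 ± 0.18 SE, adjusted p = 2.34e-06, edgeR) and 4.65 in DKO (log2 2.22 ± 0.18, adjusted p = 1.79e-06).

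TAP2 (chr17:34203527-34216321, plus strand) read 268, 215, 224 and 167 CPM in WT libraries, 787, 540, 506 and 686 CPM in IL10RAKO libraries and 771, 645, 579 and 639 CPM in DKO libraries. No knockout library overlapped WT, and the fold was 2.89 in IL10RAKO (log2 1.53 ± 0.19 SE, adjusted p = 7.75e-05, edgeR) and 3.02 in DKO (log2 1.59 ± 0.19, adjusted p = 4.46e-05). The folds are smaller in value than those of TAP1, a difference that was not tested.

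TAPBP encodes tapasin, which bridges the transporter and the empty class I molecule and edits the peptides that bind. Levels of the gene (chr17:33915899-33929292, plus strand) were 786, 553, 571 and 466 CPM in WT, 1985, 1232, 1312 and 1683 CPM in IL10RAKO and 2021, 1845, 1647 and 2047 CPM in DKO libraries. Of the 4 DKO libraries, 2 lay just above the highest IL10RAKO library and 2 within the IL10RAKO range. The log2 fold change was 1.39 ± 0.20 (SE) in IL10RAKO (adjusted p = 0.000245, edgeR) and 1.67 ± 0.20 in DKO (adjusted p = 4.59e-05).

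Tap1 and Psmb9 lie head to head on chromosome 17, and their promoter windows share 275 bases, with the 2 starts 226 bases apart in RefSeq. In GENCODE vM21 their exons share 212 bases on opposite strands, 3.9% of the exon length of Tap1 and 5.8% of that of Psmb9. The library kit does not keep strand, and the strand setting of the counting was not given in the sources used here. Whatever that setting, reads in that stretch cannot be assigned to one of the pair by strand. Other antisense transcripts cover 24.9% of the exon length of Tapbp (Gm19412), 14.1% of Tap2 (Gm15821) and 14.7% of Psmb8 (Gm20496), and none of these 3 was listed in the count table. The shared Tap1 and Psmb9 promoter is shown on the Tap1 strand, with capitals as for B2m.

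Tap1, chr17:34187306-34187605, plus strand: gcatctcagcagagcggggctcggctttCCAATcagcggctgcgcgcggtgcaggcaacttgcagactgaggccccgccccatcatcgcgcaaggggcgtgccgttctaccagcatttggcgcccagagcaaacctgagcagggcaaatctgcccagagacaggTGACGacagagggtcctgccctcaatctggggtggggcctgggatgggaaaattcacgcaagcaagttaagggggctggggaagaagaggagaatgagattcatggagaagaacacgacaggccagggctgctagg

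Seen from Tap1, this window held a CCAAT at -222 to -218 and an X2 core at -86 to -82, and seen from Psmb9 the same bases lay at -8 to -4 and at -144 to -140. Neither the ISRE core nor the GAS letters occurred within it.

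The immunoproteasome subunits PSMB8, PSMB9 and PSMB10 replace PSMB5, PSMB6 and PSMB7 in the catalytic chamber of the proteasome and shift its cuts toward peptide ends that class I molecules hold well. PSMB8 (chr17:34197721-34201454, plus strand) read 377, 280, 268 and 237 CPM in WT libraries, 1119, 813, 568 and 889 CPM in IL10RAKO libraries and 1165, 787, 596 and 749 CPM in DKO libraries. IL10RAKO library 7 and DKO library 12 were the lowest of their groups and still above WT. The fold was 2.92 in IL10RAKO (log2 1.54 ± 0.24 SE, adjusted p = 0.000561, edgeR) and 2.84 in DKO (log2 1.5 ± 0.24, adjusted p = 0.000593).

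PSMB9 (chr17:34181987-34187764, minus strand) read 92.1, 97.5, 97.95 and 81.3 CPM in WT libraries, 394, 351, 216 and 384 CPM in IL10RAKO libraries and 436, 272, 242 and 288 CPM in DKO libraries. The same 2 libraries, 7 and 12, were again the lowest of their genotypes. It had the largest fold of the proteasome genes, at 3.65 in IL10RAKO (log2 1.87 ± 0.22 SE, adjusted p = 5.74e-05, edgeR) and 3.36 in DKO (log2 1.75 ± 0.22, adjusted p = 7.73e-05).

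PSMB10 (chr8:105935735-105938444, minus strand) read 106, 76.6, 107 and 86.0 CPM in WT libraries, 338, 266, 176 and 317 CPM in IL10RAKO libraries and 325, 263, 201 and 257 CPM in DKO libraries. WT and knockout libraries did not overlap. Its log2 fold change was 1.55 ± 0.21 (SE) in IL10RAKO (adjusted p = 0.000217, edgeR) and 1.48 ± 0.21 in DKO (adjusted p = 0.000255).

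PSME1 and PSME2 encode the alpha and beta chains of PA28, the interferon-inducible cap of the proteasome. PSME1 (chr14:55578123-55581529, plus strand) was narrowly spread in WT, at 186, 169, 178 and 173 CPM, and read 425, 427, 327 and 466 CPM in IL10RAKO and 463, 376, 326 and 397 CPM in DKO libraries. PSME2 (chr14:55587441-55591113, minus strand) read 104, 108, 130 and 102 CPM in WT, 425, 373, 219 and 343 CPM in IL10RAKO and 454, 303, 275 and 340 CPM in DKO libraries. Both separated WT from the knockout libraries, PSME2 by the larger fold. The log2 fold changes of PSME1 were 1.22 ± 0.15 (SE) in IL10RAKO (adjusted p = 9.09e-05, edgeR) and 1.14 ± 0.15 in DKO (adjusted p = 0.000128). Those of PSME2 were 1.62 ± 0.21 (adjusted p = 0.000135) and 1.63 ± 0.21 (adjusted p = 0.000106).

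The promoters of Psmb8 and Psme1 are shown because each holds a match to a motif of interferon-activated factors. Psmb8 has a GAS at -97 to -89 and Psme1 a reversed ISRE core at 10 to 18, counted from the RefSeq start. Both windows lie wholly inside the GENCODE vM21 gene, downstream of its first annotated base.

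Psmb8, chr17:34197945-34198244, plus strand: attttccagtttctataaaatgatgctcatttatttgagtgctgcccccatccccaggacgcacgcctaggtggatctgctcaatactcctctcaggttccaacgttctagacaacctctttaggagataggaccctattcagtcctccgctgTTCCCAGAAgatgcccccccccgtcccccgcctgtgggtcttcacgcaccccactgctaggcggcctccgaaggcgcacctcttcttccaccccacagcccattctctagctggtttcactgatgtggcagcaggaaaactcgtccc

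Psme1, chr14:55578244-55578543, plus strand: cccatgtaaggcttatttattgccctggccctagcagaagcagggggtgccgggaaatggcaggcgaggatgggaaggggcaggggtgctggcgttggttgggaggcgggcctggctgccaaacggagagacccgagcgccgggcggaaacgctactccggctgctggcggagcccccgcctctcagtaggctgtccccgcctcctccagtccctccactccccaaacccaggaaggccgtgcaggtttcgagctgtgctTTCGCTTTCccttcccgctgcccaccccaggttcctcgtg

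RefSeq promoter windows were matched for 8 of the 10 genes, all but Nlrc5 and Tap2. Psme2 had 2 overlapping windows. The windows of Tapbp, Psmb8, Psmb9 and Psme1 lie wholly inside the GENCODE vM21 gene, downstream of its first annotated base. Of these 8 genes, 2 held the ISRE core (B2m and Psme1), where 8.56% of the 32851 promoter windows in the table did, and 1 held the GAS letters (Psmb8), where 8.30% did. CCAAT was found in 4 of 8 (B2m, Tapbp, Psmb9 and Tap1) against 37.4% of all windows, and the X2 core in 4 of 8 (B2m, Psme2, Psmb9 and Tap1) against 20.8%. In both counts the matches of Psmb9 and Tap1 are the same bases, so these genes are not independent there. The kappaB motif was found in 1 of 8 (B2m) against 8.46%. A match is a run of letters and not a measured binding site.

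DKO and IL10RAKO macrophages were compared to ask whether losing Ccr2 as well altered these genes. The study found milder colitis in DKO mice, so this comparison also spans colons of differing severity. None of the 10 passed in either direction (adjusted p = 0.9999 for each, edgeR), where 0.0457% of tested genes passed, and none of the 10 reached an unadjusted p under 0.05, where 388 of all tested genes did. DESeq2 called 0 of the 10 and 24 of all genes. Log2 differences, DKO minus IL10RAKO, ran from -0.12 for PSMB9 to 0.28 for TAPBP, with 5 above and 5 below 0 and a median of -0.01. The 95% intervals lay between -0.57 and 0.85, so that all 10 excluded a 2-fold difference in either direction. NLRC5 had the widest interval, from -0.56 to 0.85, and B2M one of the narrowest, from -0.39 to 0.27.

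**Figure D2:**
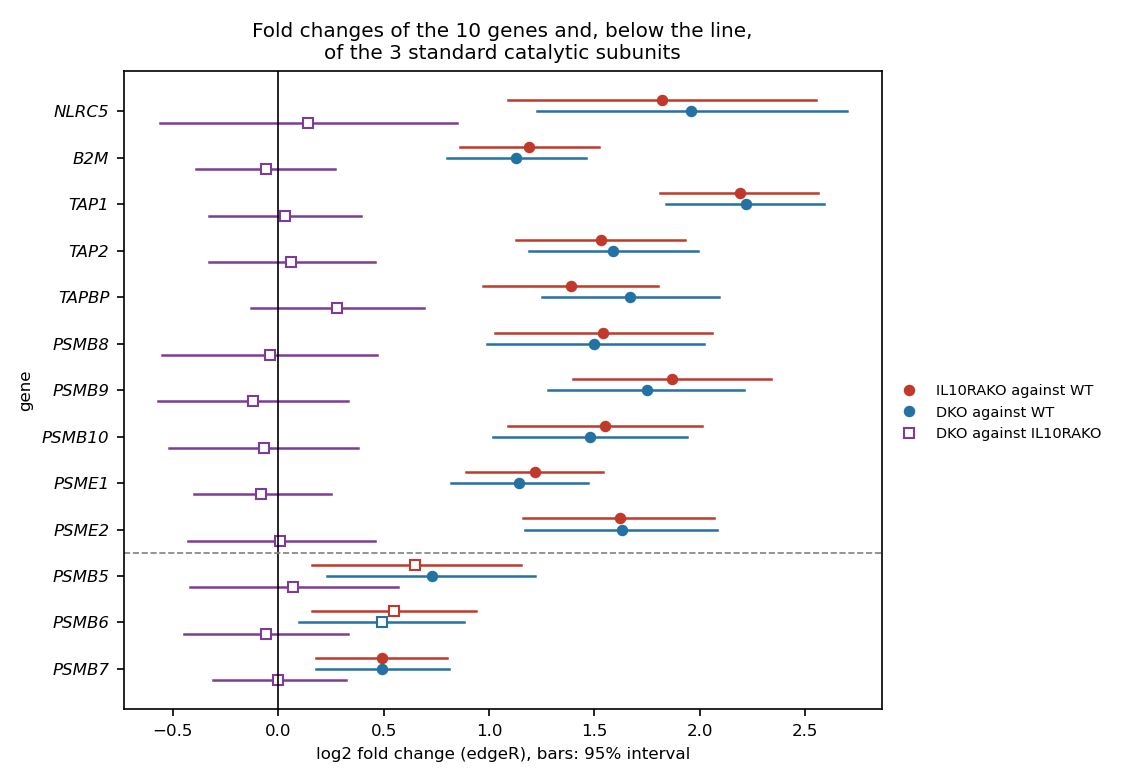
Log2 fold change of each gene with its 95% interval in the 3 comparisons (edgeR). Filled circles passed an adjusted p under 0.05 and open squares did not. The 10 class I processing genes lie at 1.13 to 2.22 against WT, the standard catalytic subunits below the dashed line at 0.49 to 0.73, and all DKO against IL10RAKO intervals cross 0.

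The standard catalytic subunits moved much less than their immunoproteasome counterparts. PSMB5 read 25.9 to 34.9, 31.2 to 62.4 and 40.5 to 69.0 CPM in WT, IL10RAKO and DKO libraries, and passed only in DKO (log2 0.73 ± 0.23 SE, adjusted p = 0.0421, edgeR), its value in IL10RAKO being 0.65 (adjusted p = 0.0725). PSMB6 read 96.8 to 141, 124 to 204 and 139 to 204 CPM and did not pass in either comparison, with log2 values of 0.55 and 0.49 (adjusted p = 0.0573 and 0.0784). PSMB7 read 40.6 to 50.8, 55.1 to 72.1 and 57.4 to 69.6 CPM and rose in both, with log2 values of 0.49 ± 0.15 (adjusted p = 0.0351 and 0.0302). With library totals in place of TMM none of the 3 passed. Leaving out single libraries ended the PSMB7 call in IL10RAKO for 6 libraries (IL10RAKO 1, 2 and 8, WT 5, 10 and 13, adjusted p = 0.0521 to 0.0980) and in DKO for 6 (DKO 3, 9 and 14, WT 5, 10 and 13, adjusted p = 0.0558 to 0.0861), and the PSMB5 call in DKO for 6 (DKO 3 and 14, IL10RAKO 2, WT 5, 10 and 13, adjusted p = 0.0512 to 0.128). PSMB6 passed in IL10RAKO without IL10RAKO 7, DKO 3 or WT 13 (adjusted p = 0.0160 to 0.0452) and in DKO without IL10RAKO 7 (adjusted p = 0.0412), and PSMB5 passed in IL10RAKO without IL10RAKO 7 (adjusted p = 0.0181).

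The ratio of each immunoproteasome subunit to the standard subunit it replaces does not depend on the scaling between libraries. PSMB8 to PSMB5, as reads per length, was 3.02 to 4.13, 6.05 to 6.96 and 5.28 to 7.42 in WT, IL10RAKO and DKO libraries. PSMB9 to PSMB6 was 0.341 to 0.597, 1.01 to 1.31 and 1.03 to 1.26, and PSMB10 to PSMB7 was 1.54 to 2.14, 2.83 to 5.12 and 3.10 to 4.39. In each pair all 8 knockout libraries lay above all 4 WT libraries. The size of a ratio depends on the transcript lengths chosen, and that choice does not alter its difference between groups. Single libraries also deviated with transcript length, as given below, and the part of this in the ratios was not tested. PSMB7 shares 11.8% of its exon length with Nek6 on the opposite strand.

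The mean log2 ratio rose by 0.91 ± 0.13 (SE) for PSMB8 to PSMB5, 1.29 ± 0.20 for PSMB9 to PSMB6 and 1.03 ± 0.21 for PSMB10 to PSMB7 in IL10RAKO. In DKO the rises were 0.79 ± 0.17, 1.22 ± 0.18 and 0.98 ± 0.15. Each of these 6 gave p = 0.0286 in a two-sided exact permutation test over libraries (adjusted p = 0.0429 over 9 comparisons), the smallest p that 4 against 4 libraries allow. Without WT library 5 none of the 6 passed after adjustment (adjusted p = 0.0514 for 5 and 0.0857 for PSMB10 to PSMB7 in IL10RAKO, exact permutation test), and all 6 passed without any other single library. WT and knockout ratios still did not overlap without WT library 5, and every log2 rise stayed at 0.69 or more. So few libraries leave few relabelings, so a p just over the threshold there does not measure a smaller rise. Between DKO and IL10RAKO the differences were -0.13 ± 0.12, -0.07 ± 0.12 and -0.05 ± 0.22, with adjusted p of 0.404, 0.771 and 0.857 in the same exact test. The fibroblast and other markers given above differ between WT and both knockout groups for the ratios too, and their part was not tested.

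**Figure D3:**
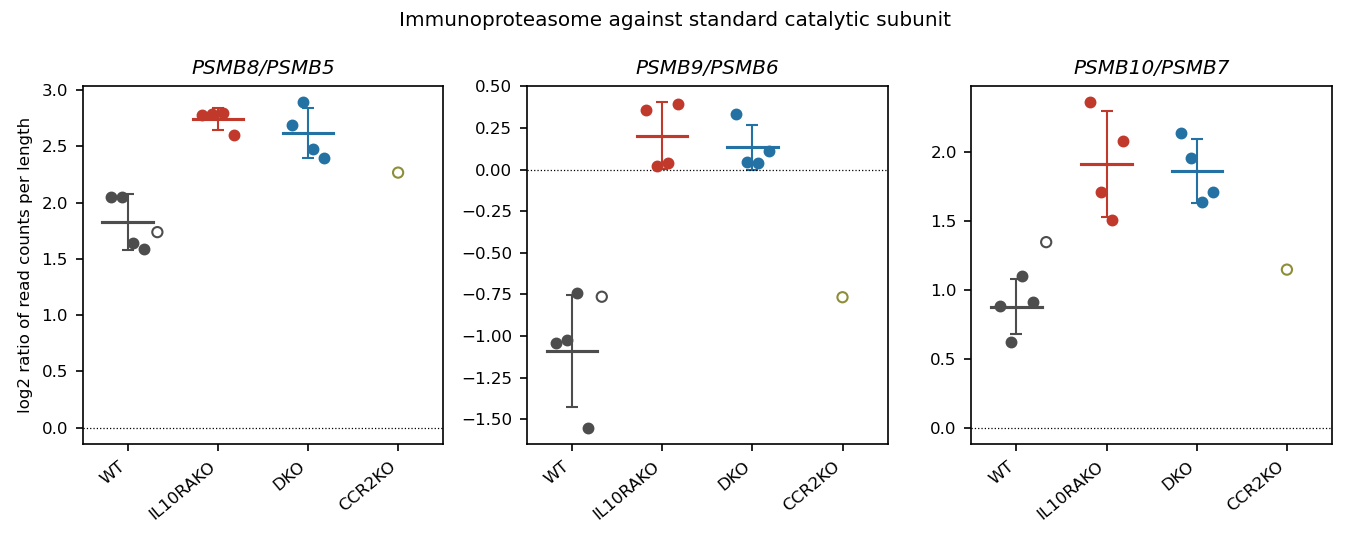
Log2 ratio of reads per length of each immunoproteasome subunit to its standard counterpart, by library. Filled points are the 12 libraries compared, lines and bars the mean and SD of 4, open points WT library 11 and the CCR2KO library. The knockout libraries lie above all filled WT points in the 3 panels, and the open points lie below every knockout library.

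Per length of transcript (RPKM, the CPM per kilobase of the median protein-coding transcript), the order of levels in WT was B2M at 2945 ± 176 (SD), PSME1 at 249 ± 10.7, TAPBP at 229 ± 52.5, PSMB8 at 178 ± 37.4, PSME2 at 139 ± 15.95, PSMB10 at 71.5 ± 11.4, TAP1 at 69.5 ± 12.2, PSMB9 at 68.2 ± 5.72, TAP2 at 63.4 ± 12.0 and NLRC5 at 4.30 ± 0.98 (n = 4 each). B2M and NLRC5 stood apart from the rest, and the 4 genes from PSMB10 to TAP2 overlapped one another, as did each neighbouring pair from PSME1 to PSME2. In IL10RAKO, TAP1 stood at 317 ± 57.0 RPKM, above PSMB9 at 249 ± 60.7, PSMB10 at 209 ± 54.8 and TAP2 at 183 ± 37.98, the libraries of PSMB9 and PSMB10 meeting its range and those of TAP2 ending below it. In DKO, TAP1 at 323 ± 27.9 RPKM overlapped PSMB9 at 229 ± 63.8 and lay above the highest library of PSMB10 and of TAP2. With the union of all annotated exons as the length, B2M remained the highest and NLRC5 the lowest in the 3 groups, and the order between them changed, TAP1 for example falling from 6th to 8th in IL10RAKO.

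Among the 8 libraries without Il10ra, NLRC5 and the other nine often lay on opposite sides of their means, a pattern noticed after the values were seen and given as a description, with no test. IL10RAKO library 1 and DKO library 3 held the least NLRC5 of their groups, 0.61 and 0.85 below its mean over the 8 libraries on the log2 scale. In the same 2 libraries PSMB8 stood 0.46 and 0.52 above its own mean, PSME2 0.35 and 0.44, and TAP2 0.30 and 0.28. DKO library 12 had the most NLRC5, 0.72 above its mean, and the least PSMB8 of its group, at -0.45. Not every library followed this course. IL10RAKO library 2 held much NLRC5, at 0.53, with PSMB9 and PSME2 at 0.16, and DKO library 14 held NLRC5 at 0.49 with PSMB9 at -0.13 and PSME2 at 0.03.

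**Figure D4:**
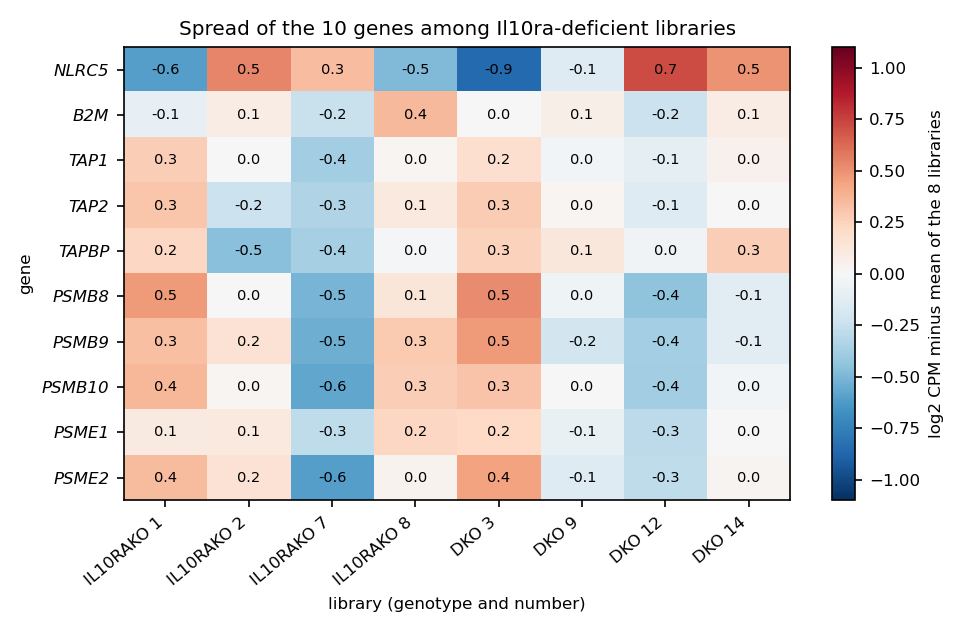
Log2 CPM of each gene minus its mean over the 8 libraries without Il10ra. Red is above and blue below the mean. NLRC5 is lowest in DKO library 3 and IL10RAKO library 1, where the proteasome genes are high, and highest in DKO library 12, where they are low. In IL10RAKO library 2 and DKO library 14 NLRC5 is high and the proteasome genes lie near their means.

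Pearson's r between NLRC5 and each of the other nine was below 0 in all 9 pairs, from -0.85 to -0.37, and Spearman's rho from -0.81 to -0.05. The lowest were those with TAP2 (r = -0.85), PSMB8 (r = -0.85) and PSMB10 (r = -0.78). Without the 2 libraries farthest from the NLRC5 median, IL10RAKO 1 and DKO 3, r ran from -0.72 to -0.18 and was -0.65, -0.62 and -0.62 for those 3. Among the other nine, r ran from 0.18 to 0.95 over 36 pairs, and from 0.68 to 0.95 over the 21 pairs without B2M and TAPBP, which also varied less closely with the rest. For these pairs too, r was taken without the 2 libraries farthest from the median of 1 gene of the pair. It then ran from -0.07 to 0.97 over the 36 pairs, with 2 below 0, and from 0.55 to 0.97 over the 21. Each genotype alone, with 4 libraries, was too small for a correlation.

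Transcript length moved with the same libraries. Across 12357 genes, Spearman's rho between transcript length and a library's deviation from the mean of the 8 was -0.24 in IL10RAKO 1, -0.33 in IL10RAKO 8 and -0.35 in DKO 3, and 0.28 in IL10RAKO 7, 0.38 in DKO 12, 0.21 in DKO 14 and 0.15 in DKO 9, with IL10RAKO 2 at -0.04. The median transcript was 4552 bases for NLRC5 and 711 to 3442 bases for the other nine. The part of length in the opposite course of NLRC5 was not tested.

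The genes outside all lists whose profile over the 12 libraries was nearest the mean of the 10 were, by root mean square difference of centred log2 CPM, SLC31A1 (0.131), SNX10 (0.143), SMIM3 (0.144), IFI211 (0.155) and RAB32 (0.167). SLC31A1, a copper transporter, rose from 60.7 CPM in WT to 170 in IL10RAKO and 177 in DKO, and IFI211, of the interferon-inducible p200 family, from 29.8 to 98.5 and 82.0 CPM. For comparison, TAP2 differed from the mean of its other nine by 0.136 and NLRC5 by 0.661. Nearest to NLRC5 itself were NOD1 (0.346), CSF2RB2 (0.373), RAPGEF2 (0.391), RALGDS (0.394) and CCDC88B (0.398). NOD1, another NOD-like receptor, rose from 38.2 CPM to 103 and 127 CPM.

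Beyond these 10, 107 genes of the proteasome, class I and interferon gamma routes were listed by function in 9 lists, with earlier results known. Of these genes 102 were tested. In IL10RAKO 33 rose and 1 fell (median log2 value 0.40), and in DKO 33 rose and 3 fell (median 0.42). Of all tested genes, 8.7% were higher in IL10RAKO and 9.23% in DKO, and 7.1% and 9.22% were lower. The counts of each list below are to be read beside these shares. None of the 102 passed between DKO and IL10RAKO with edgeR, 3 reached an unadjusted p under 0.05 (CD1D1, HFE and CLEC4B1), and DESeq2 called 1 lower, CLEC4B1. With the fibroblast covariate 1 gene was called higher in each comparison, and with library totals 15 were in each.

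Of 11 other subunits of the 20S core, 8 rose in IL10RAKO and 6 in DKO and none fell, with medians of 0.57 and 0.54. PSMB4 gave a log2 fold change of 0.79 ± 0.16 (SE) in IL10RAKO and 0.61 ± 0.16 in DKO, PSMA5 0.75 ± 0.17 and 0.80 ± 0.17, and PSMA1 0.65 ± 0.16 and 0.59 ± 0.16, all past the threshold. Of 21 subunits of the 19S regulatory particle, which recognises ubiquitin-tagged proteins, 5 and 3 rose, with medians of 0.41 and 0.43. PSMD13 rose by 0.58 and 0.70 and PSMD10 by 0.80 and 0.87, while PSMD8 rose in IL10RAKO by 0.67 and was at 0.42 in DKO (adjusted p = 0.113). Of 8 other activators, inhibitors and assembly factors, 2 rose in each: POMP, which assembles new proteasomes including immunoproteasomes, by 0.78 and 0.77, and PSMF1, an inhibitor, by 0.85 and 0.91. With library totals in place of TMM, the 20S count fell to 1 in each comparison and the 19S count to 0. When single libraries were left out, the 20S count ran from 2 (without IL10RAKO library 1) to 8 in IL10RAKO and from 2 (without DKO library 3) to 7 in DKO, and the 19S count from 0 (without IL10RAKO library 2) to 8 (without IL10RAKO library 7) and from 2 to 9 (without WT library 4). The 20S count also moved by over 1.5 times without IL10RAKO 2 or 8, WT 5, 10 or 13, or DKO 9 or 14 in IL10RAKO and without WT 5 or 13 in DKO, and the 19S count without IL10RAKO 1 or 8, WT 10 or 13, or DKO 14 in IL10RAKO and without IL10RAKO 7 in DKO. Of POMP, PSMF1 and the other activators and assembly factors, 1 passed in IL10RAKO without IL10RAKO 1 or 8 or WT 5, 10 or 13, and 1 in DKO without DKO 3 or WT 5 or 13.

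**Figure D5:**
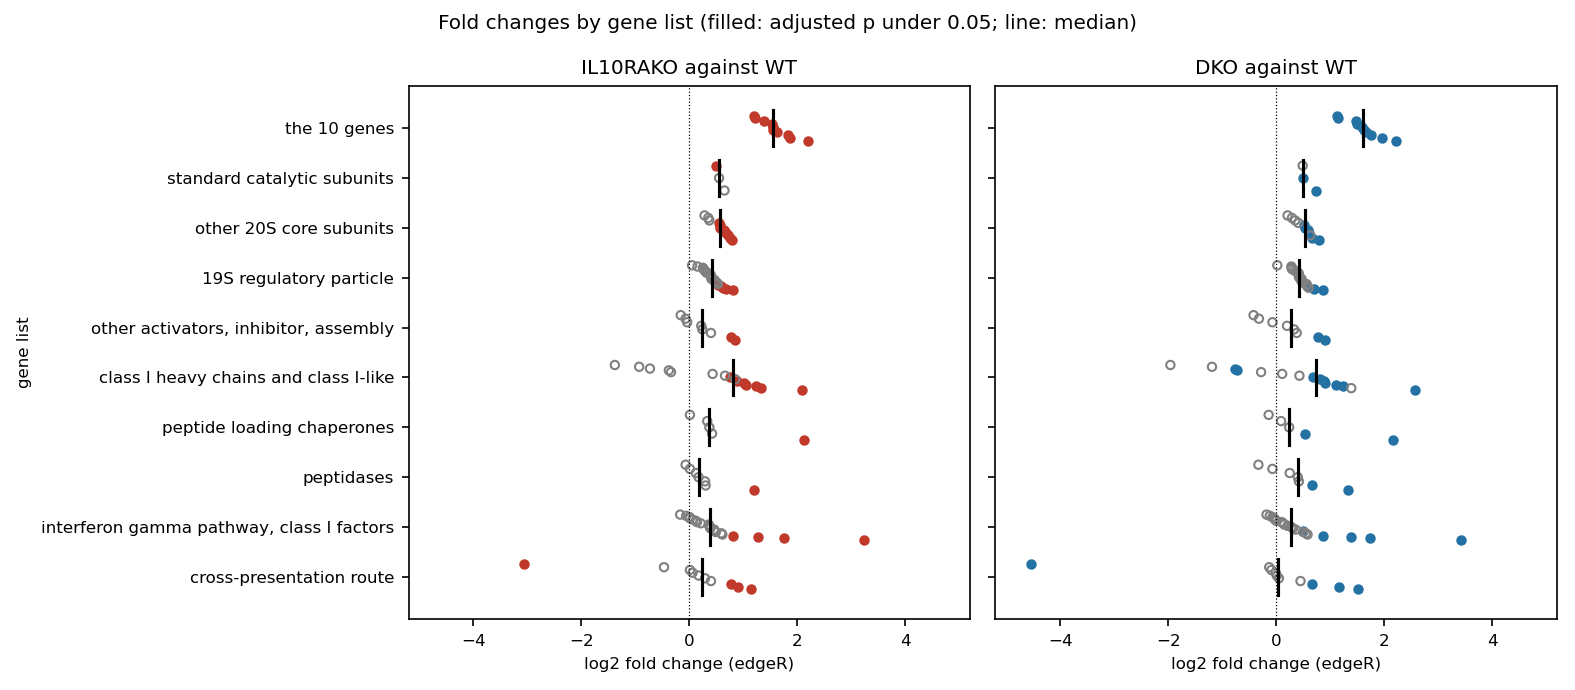
Log2 fold change (edgeR) of every tested gene by list, in IL10RAKO and in DKO against WT. Filled points passed an adjusted p under 0.05, open points did not, and the black line is the list's median. H2-Q10, with no read in WT, is not drawn. The 10 class I processing genes have medians of 1.55 and 1.61, and the medians of the other lists lie at 0.80 or lower.

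Of 20 class I heavy chain and class I-like genes, 16 were tested, 8 rose in each comparison and 2 fell in DKO, with medians of 0.80 and 0.75. H2-K1, a classical heavy chain, rose from 1673 ± 145 CPM (SD, n = 4) to 4198 ± 791 in IL10RAKO and 3931 ± 199 in DKO, with log2 fold changes of 1.33 and 1.23. H2-T23, which encodes Qa-1, rose by 1.04 and 0.81, and CD1D1, which presents lipids, by 2.09 and 2.57. HFE, an iron-regulating class I-like protein, and FCGRT, the neonatal Fc receptor, both partner B2m, and both fell in DKO, by 0.73 and 0.76 on the log2 scale, although 1 gene of the list was lower when any of 9 libraries was left out, namely WT 4, 10 or 13, IL10RAKO 7 or 8, or any DKO library. In IL10RAKO they were at -0.34 and -0.38 and did not pass (adjusted p = 0.206 and 0.317). H2-Q10 had no read in the 4 WT libraries and 0.253 to 1.48 CPM in the knockout libraries, at least 4.11-fold higher in IL10RAKO and 4.59-fold in DKO against a floor of 3 reads per library, and placing it at that bound left both medians as they were. Some of the H2 genes are near-identical copies of one another. Reads may be split or lost between such copies, and the values of the H2 genes are uncertain to that extent.

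In the loading complex beyond tapasin, TAPBPL, a tapasin-related peptide editor, rose from 33.6 ± 9.49 CPM to 146 ± 31.5 in IL10RAKO and 151 ± 19.2 in DKO (log2 2.12 and 2.17). CALR, the chaperone calreticulin, rose in DKO by 0.53 and was at 0.42 in IL10RAKO (adjusted p = 0.0651). Of the 5 chaperones tested, 1 rose in IL10RAKO and 2 in DKO. Of 7 peptidases, 1 and 2 rose: LAP3, a leucine aminopeptidase, by 1.2 and 1.33, and in DKO ERAP1, which trims peptides in the endoplasmic reticulum, by 0.66, with 0.29 in IL10RAKO (adjusted p = 0.356). In DKO 1 chaperone passed without WT 5 or 13 or DKO 14, and 1 peptidase without WT 5 or 10 or DKO 9, 12 or 14. ERAP1 shares 11.5% of its exon length with Cast on the opposite strand.

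Of 21 interferon gamma pathway genes and class I transcription factors, 4 rose in IL10RAKO and 5 in DKO, and 7 in each without WT library 4. IRF1, an interferon-induced factor that binds ISRE sites, rose by 1.75 and 1.74, IRF8 by 0.81 and 0.87 and the kinase JAK2 by 1.28 and 1.38, and RELA, an NF-kappaB subunit, passed in DKO at 0.50 (adjusted p = 0.0497). RELA did not pass without any of 9 libraries, namely WT 5, 10 or 13, IL10RAKO 2 or 8, or any DKO library (adjusted p = 0.0576 to 0.151), and the count of 5 in DKO was 4 without WT 5, 10 or 13, IL10RAKO 8 or DKO 9, 12 or 14. CIITA, the class II counterpart of NLRC5, read 263 to 346, 285 to 394 and 275 to 298 CPM in WT, IL10RAKO and DKO libraries and did not pass, with log2 values of 0.12 and -0.12. RFX5, which anchors both transactivators at their promoters, was at 0.06 and 0.13 and did not pass.

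Of 10 genes of the cross-presentation route, by which engulfed proteins reach class I, 3 rose and 1 fell in each comparison. CYBB, the catalytic subunit of the phagocyte oxidase, rose by 0.90 and 1.17, RAB27A by 1.14 and 1.51 and VAMP8 by 0.77 and 0.66. CLEC4B1, a C-type lectin, fell from 27.9 ± 7.60 CPM to 3.30 ± 0.24 in IL10RAKO and 1.18 ± 0.55 in DKO (log2 -3.07 and -4.54).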

How the data were processed

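Libraries were made from 1 RNA sample per mouse by SmartSeq v4 amplification and shearing, a kit that does not keep strand. Per the labels and methods, the authors made FASTQ files with bcl2fastq (v2.20), aligned to mm10 and counted genes with STAR (v2.5.1b). The deposited counts are raw, and the deposited edgeR (v3.34.0) pseudocounts, a normalized score, cover 12 of the 14 libraries. WT library 11 and the CCR2KO library were not among those 12 and stayed outside the tests. Counts were fitted in edgeR 4.0.16 (R 4.3.3, limma 3.58.1) with TMM, filterByExpr (minimum count 10) and the quasi-likelihood test, in 1 model of 12 libraries, with Benjamini-Hochberg adjustment over 13136 genes and a threshold of 0.05. DESeq2 1.42.0 was an alternative. The fits were tested on simulated data. Subunit ratios used counts plus 0.5 and an exact two-sided permutation test over 70 relabelings (Python, scipy). Levels per length used GENCODE vM21, and promoters came from RefSeq (GRCm38.p6). Symbols matched GENCODE for 24490 of 24982 genes.

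The named genes were the 10 members, the 3 standard catalytic subunits, the targeted genes, from each list up to 3 genes in each direction with the smallest p among those past the threshold, and the 5 nearest profiles to the members' mean and to NLRC5. Of the genes so chosen, 1 is not reported here. JAK2, RELA, CIITA, RFX5 and H2-Q10 were added after their values were seen. Members and lists were chosen with earlier results of these data known. Nrdc, a listed peptidase, was not found by symbol. Protein sequences were not analysed here.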

Additional observations from a re-analysis of the deposited data

Results flagged for a closer look

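The CCR2KO library, 1 mouse with Ccr2 alone deleted, stood above all 4 fitted WT libraries for 7 of the 10 genes, where it did so for 21.8% of all tested genes. TAP1 read 262 CPM, TAP2 271 CPM, PSMB8 463 CPM, PSMB9 158 CPM, PSMB10 116 CPM, PSME1 246 CPM and PSME2 198 CPM, while NLRC5, at 13.1 CPM, lay below all WT libraries and B2M, at 2535 CPM, within them. All 10 were below the lowest IL10RAKO and DKO library, as were 24.6% of tested genes. There is no replicate, and the library held 681 CPM of fibroblast and 2611 CPM of B and plasma cell markers, both above every WT library. Its monocyte markers summed to 416.5 CPM, above the 164 to 193 CPM of the fitted WT libraries and within the IL10RAKO range of 371 to 1057 CPM, and its macrophage markers to 9291 CPM, below the lowest of them at 9421 CPM. The part of these markers in the levels was not tested.

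In WT library 11, PSME1 read 99.8 CPM, far from the 169 to 186 CPM of the other 4 WT libraries (Dixon's test). It was 1 of 40 groups examined, and chance alone marks about 5% of groups. The same library lay below the fitted WT range for TAP1 (67.3 against 156.5 to 228 CPM), TAP2 (96.4 CPM), PSMB8 (181 CPM) and, narrowly, TAPBP (464.85 against 465.93 CPM). It lay above that range for NLRC5 (65.4 against 14.8 to 24.8 CPM), PSMB10 (116 CPM) and PSME2 (163 CPM), and within it for B2M and PSMB9. In fold, NLRC5 and TAP1 lay farther from the nearest fitted WT library than PSME1 did, although the test marked only PSME1. It had the fewest genes with a read of all libraries, 11670. It held 2425 CPM of epithelial markers, against 42.9 to 946 CPM in the other WT libraries.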

How the results depend on the processing

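Under 23 alternatives, 10 of the 10 genes stayed higher in both comparisons with WT, apart from the fibroblast covariate (1 in IL10RAKO and 1 in DKO) and the addition of WT library 11 (9 in IL10RAKO, NLRC5 at 1.27 not passing). Leaving out single libraries kept the count at 10 and moved the median log2 fold change between 1.42 and 1.70 in IL10RAKO, 1.49 and 1.69 in DKO, and -0.13 and 0.09 between DKO and IL10RAKO. With library totals in place of TMM the medians were 1.23 and 1.36. None of the 10 changed direction against WT. Genes of the 9 pathway lists called higher, 33 in each comparison, numbered 15 and 15 with library totals, 11 and 10 against a minimum 1.5-fold change, 1 and 1 with the fibroblast covariate, and 21 to 39 and 24 to 42 when single libraries were left out, the lowest in IL10RAKO being 21 without IL10RAKO library 1. Those called lower numbered 4 with library totals and 0 with the fibroblast covariate in IL10RAKO (1 as reported, CLEC4B1), and 1 with a minimum 1.5-fold change or the covariate in DKO (3 as reported). With at least 10 counts in every library the count in IL10RAKO was also 0. CLEC4B1, as low as 0.633 CPM in DKO, was removed by that filter and not tested. DESeq2 called 1 (CLEC4B1) lower between DKO and IL10RAKO. The 6 subunit ratios against WT passed with pseudocounts of 1 and 5, with the deposited pseudocounts and with WT library 11. When single libraries were left out, the log2 rise lay at 0.83 to 0.98 and 0.69 to 0.86 for PSMB8 to PSMB5 in IL10RAKO and DKO, 1.14 to 1.41 and 1.07 to 1.34 for PSMB9 to PSMB6, and 0.88 to 1.17 and 0.89 to 1.06 for PSMB10 to PSMB7. The 6 did not pass without WT library 5, although WT and knockout ratios still did not overlap there. No paired analysis was possible because the libraries came from different mice and replicate numbers only follow the order of deposit. At this depth 3 reads are 0.141 to 0.229 CPM, well under every member's level.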
